A study of Drosophila melanogaster with 7 samples.

Results

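Genes that control the assembly of actin filaments were examined in *Drosophila melanogaster*, in whole larvae of the first instar from a *pof* mutant and from wild type. The 10 genes were *dia*, *CG6891*, *Arpc1*, *tsr*, *chic*, *cib*, *cpb*, *cpa*, *ena* and *capt*. They were selected on the genotype comparison of these same arrays, whose results were already known: *CG6891* was among the few genes past the threshold and *dia* lay close to it. Every probe set that the platform annotation assigns to them by symbol was taken, which gave 11 probe sets for 9 genes among 13966 tested probe sets, and *capt* was not analysed here. No filter on low values was applied.

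The 7 single-colour Affymetrix arrays each took the polyA RNA of 400 pooled larvae. There were 4 pof mutant pools and 3 wild-type pools, all of mixed sex and mixed tissue. The sources used here do not give the pof allele, the wild-type strain or any genetic background that the groups share. Values are log2 expression made by the authors with RMA, which corrects background, normalises the arrays to each other and summarises the probes of each probe set. They compare arrays for 1 probe set and do not compare levels between probe sets, and the number of arrays limits their precision.

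A cell builds actin filaments from monomers by nucleation, elongation, capping and disassembly. Formins such as Diaphanous start and lengthen unbranched filaments, while the Arp2/3 complex starts branches on existing filaments. Profilin and beta-thymosin proteins bind monomers, cofilin severs and disassembles filaments, capping protein closes the growing end, and Enabled holds it open for growth.

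The median log2 expression of the arrays was between 6.01 and 6.06. The probe set of *Pof* itself (141415_at) read 3.41 to 3.50 in the mutant and 3.64 to 3.90 in wild type, at the 4.86 percentile of all probe sets, and its difference did not pass limma's threshold (adjusted p = 0.323). Control transcripts for GAPDH, eIF-4a and actin have probe sets at both ends, and their mean 3′ minus 5′ signal measures how evenly a transcript is represented. This 3′ minus 5′ difference was 1.92 to 2.19 (log2) on 4 arrays, pof mutant replicates 3 and 4 and wild type replicates 2 and 3, and 3.22 to 4.32 on the other 3. It ran from 2.12 to 3.95 in the mutant and from 1.92 to 4.32 in wild type and overlapped between them (exact two-sided permutation p = 0.857 over 35 splits, smallest possible p = 0.0286). Its values are given beside the members where they move with them.

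Of the 9 measured genes, 3 had a probe set whose values did not overlap between the genotypes. *CG6891* was higher in the mutant on both of its probe sets, *Arpc1* was higher on 1 of 2, and *dia* was lower. The other 6 genes, *tsr*, *chic*, *cib*, *cpb*, *cpa* and *ena*, lay within the spread of the arrays. In all, 4 of the 11 probe sets did not overlap, 3 higher and 1 lower in the mutant, where 6.0% of all 13966 probe sets did not (3.21% higher and 2.79% lower). The same 4 differed by at least 0.5 on the log2 scale, as did 1.67% of all probe sets. Since this contrast was in view when the genes were picked, these counts and all member values below are a description, carry no p-value and support nothing beyond themselves. In whole larvae, fewer cells of a type and less RNA per cell cannot be told apart.

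*dia* (143636_at, chromosome arm 2L) encodes Diaphanous, a formin that is required for cell division. Its log2 expression was 4.59, 4.48, 4.26 and 4.26 on pof mutant replicates 1 to 4 and 5.29, 5.42 and 5.77 on wild type replicates 1 to 3. All mutant arrays lay below all wild-type arrays, with a gap of 0.70 between the highest mutant and the lowest wild-type value. The range within a group was 0.32 in the mutant and 0.48 in wild type, smaller than that gap. The means were 4.40 ± 0.16 (SD, n = 4) and 5.49 ± 0.25 (SD, n = 3), and the log2 difference, mutant minus wild type, was -1.09 ± 0.13 (limma SE), so that the wild-type level was 2.13-fold that of the mutant. Only 12 of the 13966 probe sets had a more negative difference. Its mean level ranked at the 25.1 percentile of the tested probe sets, in the part of the scale where RMA can compress changes.

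*CG6891*, on the X chromosome, is annotated in RefSeq with the synonym Cotl1. It is a coactosin-like protein of the same actin-binding family as cofilin, and in mammals coactosin-like protein binds actin filaments. Probe set 145327_s_at read 8.26, 8.29, 8.46 and 8.36 on pof mutant replicates 1 to 4 and 7.44, 7.09 and 7.08 on wild type replicates 1 to 3. The groups were separated by a gap of 0.82, and the mutant arrays spanned 0.20. The means were 8.34 ± 0.09 (SD, n = 4) and 7.20 ± 0.21 (SD, n = 3), a log2 difference of 1.14 ± 0.10 (limma SE) or 2.21-fold. This was the 1 member probe set of 11 past limma's threshold of an adjusted p under 0.05, which 0.0644% of all probe sets passed (0.0358% higher in the mutant), and 6 of 13966 probe sets had a higher difference. It did not pass when any 1 array other than wild type replicate 1 was left out. An _s_at probe set can bind more than 1 transcript.

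The other probe set of *CG6891*, 141412_at, had the same order of groups. It read 7.07, 6.88, 7.21 and 7.09 in the mutant and 6.51, 6.11 and 6.26 in wild type. Here too no value overlapped, with a smaller gap of 0.37. The log2 difference was 0.77 ± 0.12 (limma SE), or 1.71-fold. On both probe sets the wild-type array nearest to the mutant was replicate 1.

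*Arpc1* (arm 2L) encodes a subunit of the Arp2/3 complex, and its 2 probe sets differed from each other. On 143007_at the mutant arrays read 9.02, 8.98, 8.95 and 8.68 and the wild-type arrays 8.15, 8.23 and 8.49. The groups did not overlap, but the gap of 0.19 was smaller than the range within either group (0.34 in each). The log2 difference was 0.62 ± 0.11 (limma SE), or 1.53-fold. On 142104_at the mutant arrays read 5.58, 5.75, 5.48 and 5.50 and the wild-type arrays 5.93, 5.21 and 5.21. Wild type replicate 1 was the highest of all 7 arrays there and the other 2 wild-type arrays the lowest, so the groups overlapped, with a difference of 0.12 ± 0.18 (limma SE). Without wild type replicate 1 this probe set did not overlap, with a difference of 0.36, but only 2 wild-type arrays were then left. Without wild type replicate 2 or 3 it overlapped, with differences of 0.0019 and 0.0041.

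**Figure D1:**
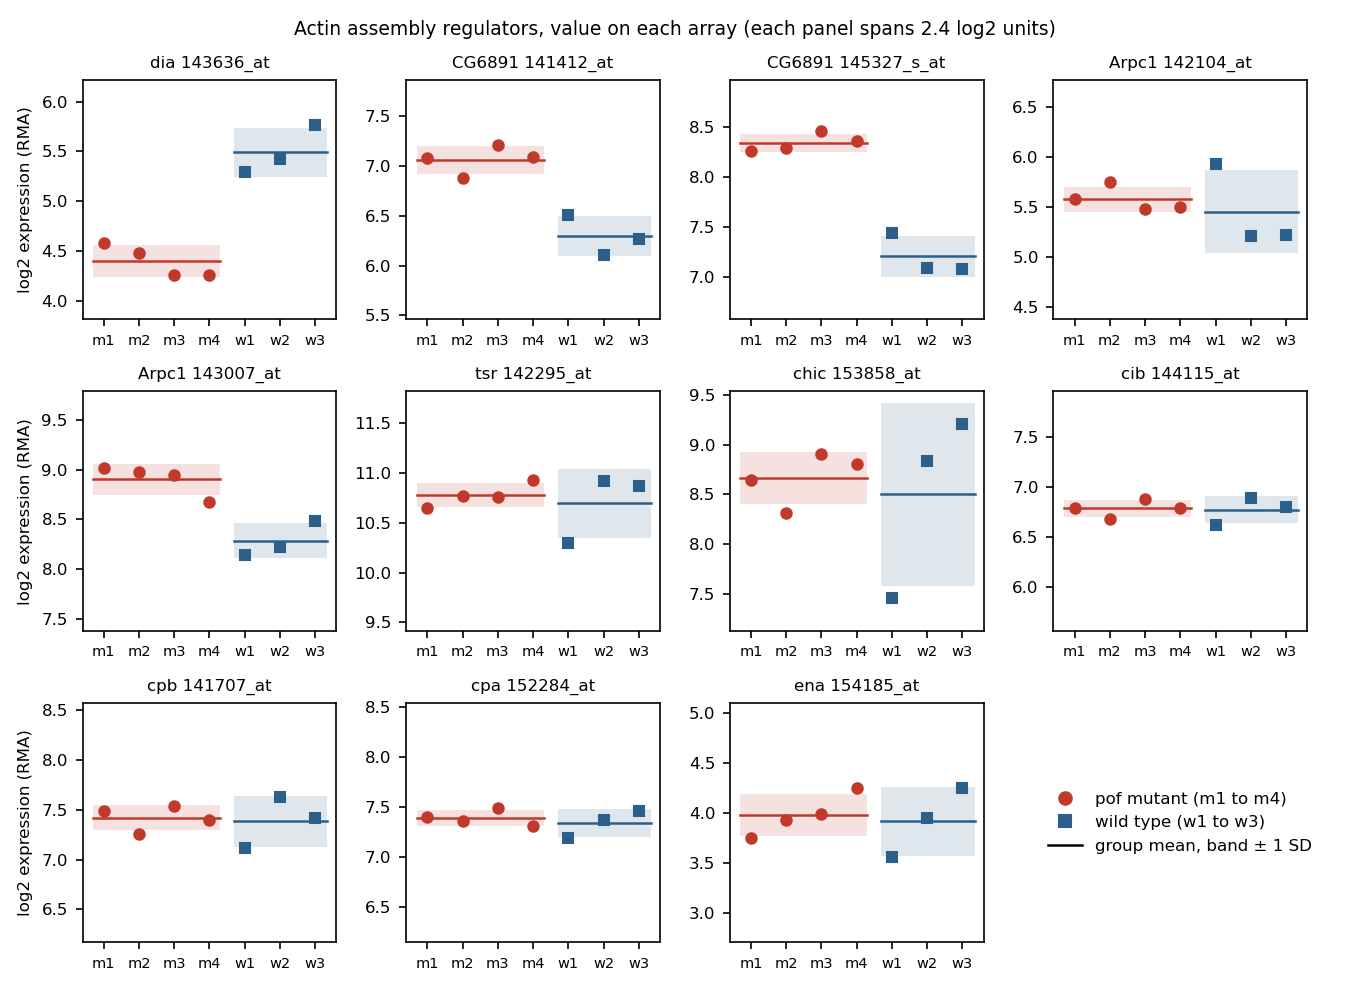
Log2 expression of the 11 probe sets on each array, with pof mutant replicates 1 to 4 as circles (m1 to m4) and wild type replicates 1 to 3 as squares (w1 to w3), lines for group means and bands for 1 SD. All mutant values lie below the wild-type values for *dia* and above them for both *CG6891* probe sets and *Arpc1* 143007_at, while the other 7 panels overlap.

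The monomer-binding genes were not separated by genotype. *chic* (153858_at, 2L) encodes profilin, which carries monomers to growing filament ends. It read 8.64, 8.31, 8.91 and 8.80 on pof mutant replicates 1 to 4 and 7.46, 8.84 and 9.20 on wild type replicates 1 to 3. The wild-type arrays alone spanned 1.74, with replicate 1 the lowest and replicate 3 the highest of all 7 arrays, so the mutant values lay inside the wild-type range. The difference was 0.16 ± 0.38 (limma SE), the largest error among the members, and the pooled SD of 0.62 ranked at the 99.1 percentile of the tested probe sets. Without wild type replicate 1 the sign turned, to -0.36. *cib* (144115_at, X) encodes Ciboulot, a protein of beta-thymosin repeats that promotes actin assembly. Its values ran from 6.68 to 6.88 in the mutant and from 6.62 to 6.89 in wild type. With a difference of 0.01 ± 0.08 (limma SE) it had the closest group means of the 11 probe sets.

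Cofilin and capping protein overlapped between genotypes, with differences smaller than their errors. *tsr* (142295_at, 2R) encodes cofilin, and its values ran from 10.65 to 10.93 in the mutant and were 10.30, 10.91 and 10.87 in wild type. Wild type replicate 1 was the lowest array and the others overlapped, with a difference of 0.08 ± 0.15 (limma SE). The alpha and beta subunits of capping protein form 1 heterodimer. *cpa* (152284_at, 2R) differed by 0.05 ± 0.08 and *cpb* (141707_at, 2L) by 0.03 ± 0.13 (limma SE). Mutant values of *cpa* (7.30 to 7.49) and *cpb* (7.25 to 7.53) overlapped the wild-type values (7.19 to 7.46 and 7.11 to 7.62). *ena* (154185_at, 2R) encodes Enabled and ran from 3.75 to 4.25 in the mutant and from 3.56 to 4.25 in wild type, a difference of 0.06 ± 0.18 (limma SE). Its mean level ranked at the 10.02 percentile of the tested probe sets, where a change can be understated.

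Over the 11 probe sets, 10 had a higher mean in the mutant, against 42.0% of all probe sets, and the median difference was 0.08 against -0.02 over all. That count rested on wild type replicate 1. It was the lowest array for 7 of the 11 probe sets, and for 6 of the 7 that overlapped between genotypes, while it was the lowest for 22.8% and the highest for 36.2% of all probe sets. Without it 4 of 11 had a higher mean, the 2 of *CG6891* and the 2 of *Arpc1*, against 52.6% of all probe sets. The median difference was then -0.06, against 0.01 over all. This array also had the highest 3′ minus 5′ difference of the controls (4.32).

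**Figure D2:**
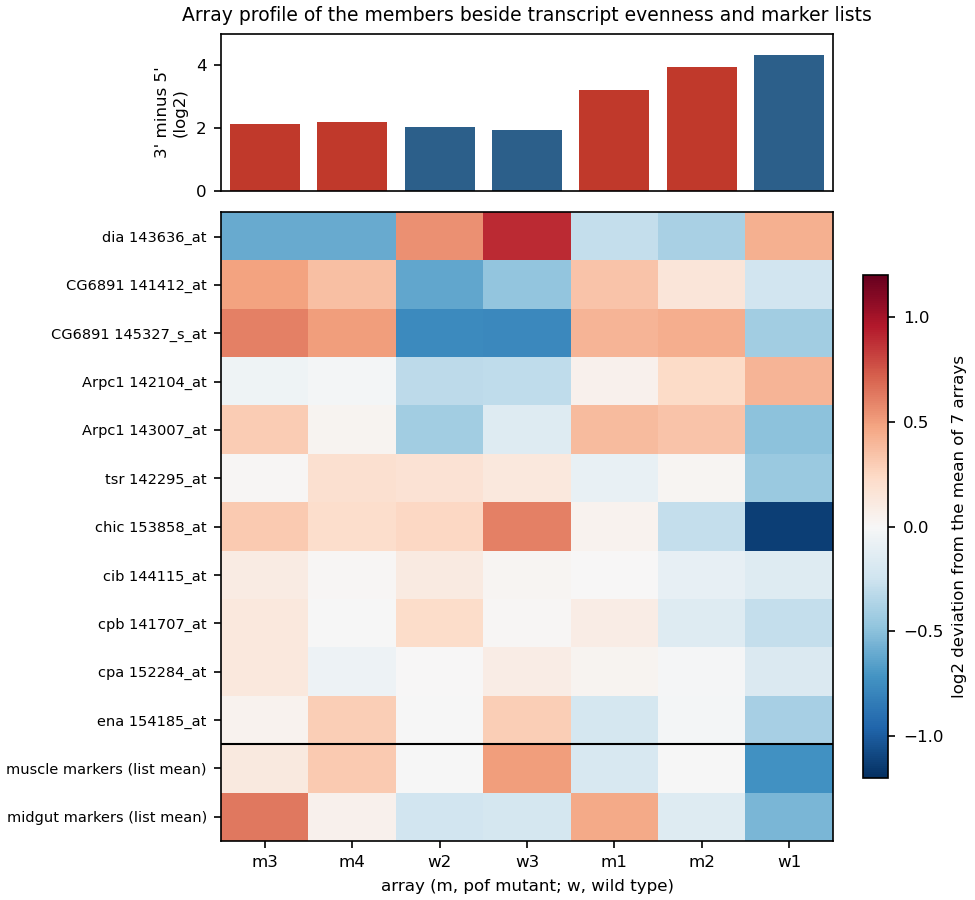
Bars show the mean 3′ minus 5′ difference of control transcripts on each array (log2; red, pof mutant; blue, wild type), and colours below show each probe set's log2 deviation from its mean over 7 arrays, with the mean of 2 marker lists under the line. Wild type replicate 1 (w1) has the highest bar, 4.32, and is the lowest array for 7 of the 11 member probe sets and for the muscle and midgut lists.

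Differences were also taken within arrays of like evenness, a split that was added after the data were seen. Where the groups do not overlap, as for *dia*, *CG6891* and *Arpc1* 143007_at, every such split must keep the sign, so only the sizes are given. Over the 4 arrays with a 3′ minus 5′ difference under 3, 2 of each genotype, *dia* differed by -1.33 and *CG6891* by 1.33 (145327_s_at) and 0.97 (141412_at). *Arpc1* 143007_at differed there by 0.45. Over the other 3 arrays, with wild type replicate 1 as the only wild-type array, the values were -0.76 for *dia* and 0.83 and 0.47 for *CG6891*, and 0.85 for *Arpc1* 143007_at. The differences of *dia* and *CG6891* were larger, and that of *Arpc1* 143007_at smaller, among the more even arrays. Of the 11 probe sets, 6 had opposite signs in the sets. *chic* differed by -0.17 in the first set and 1.01 in the second, *tsr* by -0.05 and 0.41, and *Arpc1* 142104_at by 0.28 and -0.27. The other 3 were *cib* (-0.01 and 0.11), *cpb* (-0.05 and 0.26) and *cpa* (-0.02 and 0.19). Of the 7 probe sets that overlapped between genotypes, *ena* alone kept its sign (0.02 and 0.28). In the second set the sign of these 7 was fixed as well. Wild type replicate 1 was the lowest of all arrays for 6 of them and the highest for *Arpc1* 142104_at. The opposite signs therefore cannot separate evenness from that 1 array.

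**Figure D3:**
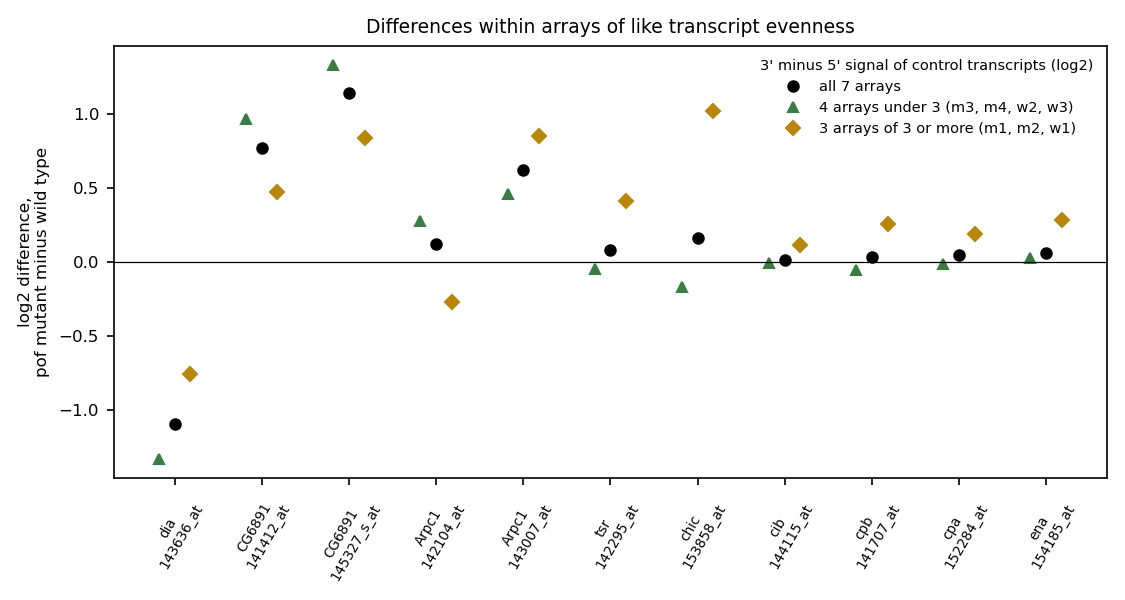
Log2 difference, pof mutant minus wild type, of each member probe set over all 7 arrays (circles), over the 4 arrays with a 3′ minus 5′ difference under 3 (triangles) and over the other 3 (diamonds). Opposite signs appear for *chic*, *tsr*, *Arpc1* 142104_at, *cib*, *cpb* and *cpa*, while the sign of *dia*, *CG6891* and *Arpc1* 143007_at is fixed by groups that do not overlap. For the other probe sets the sign of the diamonds is fixed by wild type replicate 1. It was their lowest array, or for *Arpc1* 142104_at their highest.

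Actin itself was measured by the control probe sets of the array, which were left out of the fit. The 3′ actin control read 8.85, 8.59, 8.79 and 8.78 in the mutant and 7.82, 8.55 and 8.48 in wild type. All mutant arrays lay above all wild-type arrays, by as little as 0.04 between pof mutant replicate 2 and wild type replicate 2. The middle and 5′ actin controls overlapped, with mean differences of 0.05 and -0.09. Of 6 actin genes 3 were measured, and *Act5C*, *Act42A* and *Act57B* were not analysed here. The measured *Act88F* (0.08 ± 0.05), *Act87E* (0.15 ± 0.47) and *Act79B* (-0.09 ± 0.30; differences with limma SE) did not pass limma's threshold (adjusted p at least 0.962). *Act88F* did not overlap between groups (4.23 to 4.27 in the mutant and 4.15 to 4.18 in wild type), while the other two did. The probe sets of *Act87E* and *Act79B* carry the _f_at suffix of gene families, so their signal can come from several actins.

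Outside the 10 genes, 5 lists of actin genes by role held 43 genes, of which 32 were measured with 1 probe set each, the one with the highest mean. None of the 32 passed limma's threshold in either direction (adjusted p from 0.798 to 0.996), which only 7 of all 10843 genes passed. An unadjusted p under 0.05 was found for 2 of 32 (6.25%), against 5.73% of all 10843 genes. Higher means in the mutant were found for 21 (65.6%, against 42.0% of all genes) and lower means for 11. The median difference was 0.02 against -0.02 over all genes. Without wild type replicate 1, left out here after the data were seen, 17 had higher and 15 lower means. In that setting 52.6% of all probe sets had a higher mean. Groups did not overlap for 3 of 32, *Arpc3B*, *Gel* and *Act88F*, all higher in the mutant, where 6.26% of all genes did not overlap. *Act88F* lay low on the scale, with a mean level of 4.21 against 4.87 for *dia*.

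The other subunits of the Arp2/3 complex and its activators had 10 of 14 genes measured, 6 with higher and 4 with lower means, and a median difference of 0.02. *Arpc3B* differed by 0.15 ± 0.07 (limma SE) with no overlap between groups (unadjusted p = 0.0489, limma adjusted p = 0.915). The subunits *Arpc2* (0.12 ± 0.08), *Arpc5* (0.07 ± 0.07) and *Arpc3A* (0.18 ± 0.18) overlapped between groups (limma, adjusted p = 0.962 for each). All of these were smaller than the difference of 0.62 on *Arpc1* 143007_at, a comparison that was not tested. The other *Arpc1* probe set, 142104_at, differed by 0.12 ± 0.18 (limma SE), within the range of these subunits.

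Of the formins and Spire, 5 of 6 genes were measured besides *dia*, 2 with higher and 3 with lower means, with a median of -0.03. *Fhos* (0.14 ± 0.08), *DAAM* (-0.06 ± 0.06), *spir* (-0.11 ± 0.13) and *capu* (-0.03 ± 0.11; limma SE) all overlapped between genotypes, with limma adjusted p of at least 0.962. *Fhos*, *DAAM* and *capu* are formins like *dia*, and Spire works together with Cappuccino, the product of *capu*, in the oocyte.

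Turnover and monomer-binding genes had 7 of 8 measured, 5 with higher and 2 with lower means (median 0.02). The gelsolin gene *Gel*, whose protein severs and caps filaments, did not overlap between groups and differed by 0.30 ± 0.11 (limma SE; unadjusted p = 0.0231, adjusted p = 0.798). *GMF*, which belongs to the cofilin family as *CG6891* and *tsr* do, differed by 0.07 ± 0.11, *pod1*, a coronin, by -0.04 ± 0.09, and *flr*, a cofactor of cofilin, by 0.02 ± 0.06. Bundling and crosslinking genes had 7 of 9 measured, 6 with higher and 1 with a lower mean (median 0.18). All 7 were lowest on wild type replicate 1, where the list's mean level was 7.03 against 7.67 to 8.25 on the other 6 arrays. Without that array 3 had higher and 4 lower means, and the median turned to -0.18. *beta-Spec* (0.44 ± 0.47), *Fim* (0.36 ± 0.21), *kst* (0.18 ± 0.16) and *sn*, the fascin (0.12 ± 0.08), had errors of 0.08 to 0.47 (limma, adjusted p = 0.962 for each). *beta-Spec* was lowest on wild type replicate 1 (7.20 against 8.36 to 9.33 on the other 6 arrays), as *chic* was.

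**Figure D4:**
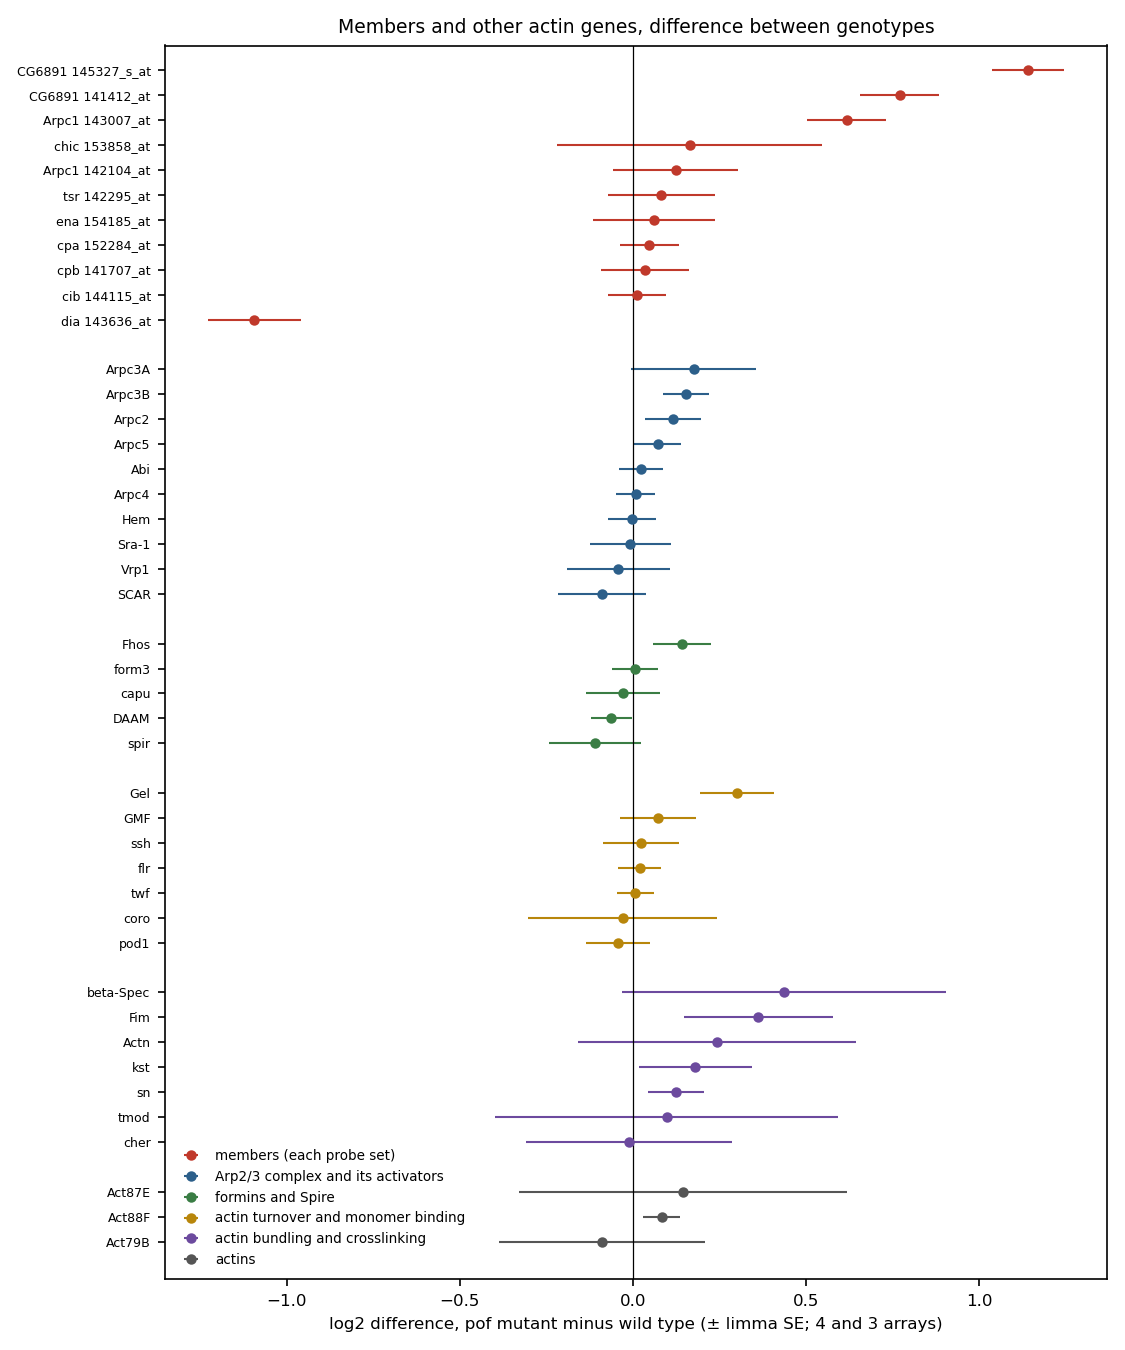
Log2 difference, pof mutant minus wild type, with limma SE (4 and 3 arrays), for the 11 member probe sets and for 32 genes of 5 other actin lists. The members *dia*, *CG6891* and *Arpc1* 143007_at lie outside the span of the other lists, which runs from -0.11 to 0.44. The members were picked with this contrast known and the lists leave them out, so this placing is a description only.

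Tissue markers gave the following levels beside these results. Their lists were chosen with earlier results of these data known, so the levels and counts are a description only. The labels give whole larvae, and 5 of 7 larval cuticle markers were measured, with a mean log2 level of 7.02 to 7.53 in the mutant and 6.97 to 7.67 in wild type. The 6 of 7 midgut markers measured had a mean level of 10.32 to 11.10 in the mutant and 9.93 to 10.27 in wild type. On these values the list did not overlap between genotypes. Within it 5 genes had higher means and 1 a lower mean. The lower one, the protease gene *Jon25Biii*, read 11.88 to 12.40 in the mutant and 12.62 to 12.89 in wild type, without overlap. The list's highest arrays were pof mutant replicates 3 (11.10) and 1 (10.93), and its lowest was wild type replicate 1 (9.93). The part of this list in the members' differences was not tested. The 8 of 12 muscle markers measured ran from 9.55 to 10.05 in the mutant and from 9.01 to 10.24 in wild type, with the lowest value on wild type replicate 1 and the highest on replicate 3, the arrays with the lowest and highest *chic*. Its part in the spread of *chic* was not tested. Haemocyte (6 of 7 measured), neuron (4 of 6) and ovary and adult female markers (7 of 8) overlapped between genotypes, at 4.51 to 4.71 against 4.62 to 4.78, 5.28 to 5.55 against 5.27 to 5.75 and 5.83 to 6.02 against 5.79 to 6.04. No gene of the 6 marker lists passed limma's threshold (adjusted p at least 0.156), which only 7 of all 10843 genes passed. An unadjusted p under 0.05 was found for 5 midgut genes (4 higher, 1 lower), 2 cuticle genes (1 higher, 1 lower) and 1 haemocyte gene (lower), against 5.73% of all genes. Groups did not overlap for 3 higher and 1 lower midgut gene, and for 1 higher and 2 lower cuticle genes. All measured genes of the muscle, haemocyte, neuron and ovary and adult female lists overlapped. Over all genes, 6.26% did not overlap.

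By likeness of pattern over the 7 arrays, among probe sets with 1 gene and a mean level of at least 6, those closest to *dia* were *Vps25* (Pearson r = 0.964, 2R), *Ctl1* (0.952, 3L) and *Lsm12a* (0.952, X). Their log2 differences were -0.18, -0.39 and -1.05. Closest to *CG6891* 145327_s_at was its own other probe set (r = 0.978), followed by *Cyp6a17* (0.975, 2R) and *Taz* (0.967, 2R), with differences of 2.39 and 0.38. These correlations are over 7 arrays that share the genotype contrast, taken as the highest of 6343 and 6342, and are a description only.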

How the data were processed

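The deposited values are log2 expression. RMA, with no version given, is the tool the submitters' processing notes list. They ran from 2.62 to 14.5. Groups and replicate numbers come from the sample titles. No 2 arrays were identical, and pairwise correlations were 0.970 to 0.995.

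Probe sets were named through the platform annotation, with symbols and arms updated by identifier from RefSeq (Release 6): of 13966 probe sets (44 controls left out), 12442 had 1 gene, 327 several and 1197 none here, and 12393 of the first matched RefSeq. Coordinates are left out because the array's build is not given in the sources used here.

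All 13966 probe sets were fitted with limma 3.58.1 in R 4.3.3 (lmFit, eBayes, no covariate), with Benjamini-Hochberg adjustment over all and a threshold of 0.05. The steps were tested on simulated data. Figures used matplotlib 3.10.9 in Python 3.11.15.

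The members and lists were chosen with earlier results of these data known. The text names every member probe set, the 4 or fewer genes of smallest p in each of 5 actin lists, and the 3 probe sets most like *dia* and *CG6891*. Neighbouring genes were added later. Another list that was fixed with these is not reported here. Alternatives were another quantile normalization, median centring, the replicate block, eBayes with trend and robust, and array weights. Others were the 3′ minus 5′ difference as a covariate, a level of at least 6, leaving out _s_at, _x_at and _a_at probe sets, medians, gene means, an adjusted p under 0.01, and leaving out each array.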

Additional observations from a re-analysis of the deposited data

Results flagged for a closer look

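Among 31 sets of 4 mutant values, those of the members, of the named genes of the other actin lists and of the control transcripts, 2 held an array whose gap to the others passed the 95% limit of Dixon's test. Chance alone flags about 1 in 20 such sets. Both were on pof mutant replicate 2. *pod1* (142730_at) read 6.89 there against 6.74 to 6.76 on the other 3 arrays, and *flr* (154381_at) read 8.03 against 7.95 to 7.96. No member probe set was flagged. Groups of 3 were not examined, so the low *chic* value of wild type replicate 1 could not be.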

How the results depend on the processing

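The difference of *dia* lay between -1.33 and -0.76 over its alternatives. Signs of *dia*, *CG6891* and *Arpc1* 143007_at did not turn, which groups without overlap fix whenever arrays are left out. Past limma's threshold, *CG6891* 145327_s_at was lost with the replicate block, at an adjusted p under 0.01 and without any 1 array other than wild type replicate 1. *dia* was gained with trend and robust, and *dia* and *CG6891* 141412_at with array weights, with the covariate and without wild type replicate 1. The count of calls over all probe sets was 9. It became 2 with the replicate block, 76 with array weights, 86 with the covariate, 4 at an adjusted p under 0.01, and 0 to 34 without each array, with 0 without pof mutant replicate 1, 5 without replicate 2 or 3, 2 without wild type replicate 2 and 34 without wild type replicate 1. Correlations of deviations between arrays of the same replicate number were 0.25, -0.57 and 0.56. They cannot decide whether the numbers pair the arrays, because the arrays also differ in 3′ minus 5′ signal. The highest correlation between genotypes, 0.69, was that of pof mutant replicate 2 with wild type replicate 1, both among the less even arrays. The block drops pof mutant replicate 4. The number of members with a higher mean, 10 of 11, became 4 with array weights, 5 among the 4 more even arrays, and 4 to 10 without each array, with 4 without wild type replicate 1. The median difference was 0.28 among the less even arrays and ran from -0.062 without wild type replicate 1 to 0.17 without replicate 3. The count that did not overlap was 3 to 5. The other actin lists gave 0 calls under every alternative (limma). The genotype difference in 3′ minus 5′ signal, 0.11, ran from -0.30 to 0.89 without each array. Of 183 member differences under alternatives, 12 moved by more than 1 SD between replicates, all of them in the evenness sets. Low levels limit *dia* and *ena*, where changes can be understated, which was not measured here.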

Other observations

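The nearest measured genes on either side of *dia* and *CG6891* in the Release 6 gene order, 8 in all, were looked up after the members' values were seen. None passed limma's threshold (adjusted p at least 0.962), which 0.0644% of all probe sets passed. All 8 overlapped between genotypes, where 6.0% of all probe sets did not. Beside *dia* on 2L, *Rhau* differed by 0.04 ± 0.09 (limma SE), *Ns4* by -0.02 ± 0.10, *cad*, the caudal homeobox gene, by 0.17 ± 0.18 and *Pomp* by -0.40 ± 0.24. Beside *CG6891* on the X chromosome, *CCKLR-17D3* differed by 0.04 ± 0.07, *CG12609* by 0.04 ± 0.07, *CG6961* by -0.07 ± 0.11 and *S6KL* by 0.16 ± 0.08.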
